A study of Mus musculus with 23 samples.

Results

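T-cell acute lymphoblastic leukemia (T-ALL) that arose from a Notch3-deficient thymus was compared with T-ALL that arose from a wild-type thymus. The comparison held the 3 libraries labelled Notch3 KO-derived and the 14 labelled WT-derived, 17 of the 23 libraries of the series, and the group was taken from the label alone. All 17 libraries were spleens of Rag2-/-Il2rg-/- BALB/c host mice, young adults at grafting, that developed leukemia after 1 lobe of a newborn thymus was placed under the kidney capsule. The donors of WT T-ALL were B6.SJL congenic mice carrying CD45.1 (B6.Ly5.1). The donors of Notch3 KO T-ALL carried a beta-galactosidase gene fused in frame within Notch3's first coding exon, and their strain background is not given in the sources used here. The spleens were sequenced whole, so each library mixed leukemic cells with host cells, which kept an intact Notch3. The remaining 6 libraries were thymus of normal C57BL/6 mice and entered the fit only where the text says so. The comparison addressed whether the loss of Notch3 in the donor thymus changed the transcriptome of the tumors.

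Notch receptors are single-pass membrane proteins that are cut after binding a ligand on a neighboring cell. The last cut, by gamma-secretase, releases the intracellular domain, which enters the nucleus and turns on target genes with Rbpj and Maml proteins. Notch1 is required for T-cell commitment in the thymus and is often mutated in T-ALL, and Notch3 is a receptor that thymocytes and many T-ALL cells also express.

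Values are log2(scaled RPKM + 1), where RPKM counts reads relative to transcript length and library size and each library was scaled to the same upper quartile. Differences are Notch3 KO T-ALL minus WT T-ALL on this scale, with the standard error (SE) of limma, and they understate the change of genes with low values. A gene was tested if its scaled RPKM was at least 1 in at least 3 of the 17 libraries, and it was called changed at a Benjamini-Hochberg adjusted p under 0.05 in limma. Libraries listed between 10154 and 11011 genes at a scaled RPKM of 1 or more in WT T-ALL and between 10716 and 10975 in Notch3 KO T-ALL. The T-cell genes Cd3d, Cd3e, Cd3g and Thy1 were among the tested genes, and 0 of 14 genes of the T-cell surface list were called. The labels name no batch, but 9 genes parted thymus libraries 5 and 6 from the other thymus libraries and WT T-ALL 3, 4, 5 and 7 from the other WT T-ALL libraries. At least 8 of these 9 genes placed each Notch3 KO library with that set. For the same thymus pair, the next most common split of the WT T-ALL libraries was shared by 5 genes, so the margin of this set was small. A further 25 genes parted thymus libraries 1 and 3 and WT T-ALL 14, 36 and 48 from the rest, and 16 of these 25 placed Notch3 KO T-ALL 3 there, 2 placed library 1 there and 0 library 2, so the place of library 3 is ambiguous. The comparison was also computed in the set of 3 Notch3 KO and 4 WT T-ALL libraries, called here the 7-library set, for the genes that passed the filter there, 64 of the 72 genes called below among them. That each library came from a separate tumor case is given by the labels, and p-values measure the spread between these cases.

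Of 11677 genes tested, 72 were called (0.617%), with 69 rises in Notch3 KO T-ALL (0.591%) and 3 falls (0.0257%). The median difference over all tested genes was -0.0027 and the middle range between quartiles ran from -0.19 to 0.19. The 69 rises held 15 RNAs without a poly(A) tail, counted apart from histones, 18 genes of pancreatic acinar cells and 5 replication-dependent histone genes. Of those 15 RNAs, 6 were copies of 5S ribosomal RNA with 1 set of values, and 5 passed the filter through the Notch3 KO libraries alone. The other rises were 1 red cell membrane gene, 1 platelet gene, 1 gene of the p53 list and 28 genes outside these lists. All 3 Notch3 KO libraries lay above all 14 WT T-ALL libraries in 38 tested genes (0.325%) and below all of them in 13 (0.111%). The number of calls rested on single libraries. Leaving out 1 Notch3 KO library gave 205 calls for library 1, 3 for library 2 and 12 for library 3, and leaving out WT T-ALL 108 gave 158.

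The 54 gene lists for pathways and cell types held 892 tested genes, of which 15 were called higher and 1 lower, or 1.79% against the 0.617% of all tested genes. The 16 calls were 7 short non-coding RNAs, of which 5 passed the filter through the Notch3 KO libraries alone, 6 replication-dependent histone genes, and Gadd45a, Dmtn and Treml1, the 3 calls in all other lists. No gene of the lists for T-lineage transcription factors, T-cell receptor signaling, cytokine signaling, the Bcl2 family, PI3K and mTOR, NF-kappaB, DNA replication, mitosis or the proteasome was called.

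**Figure D1:**
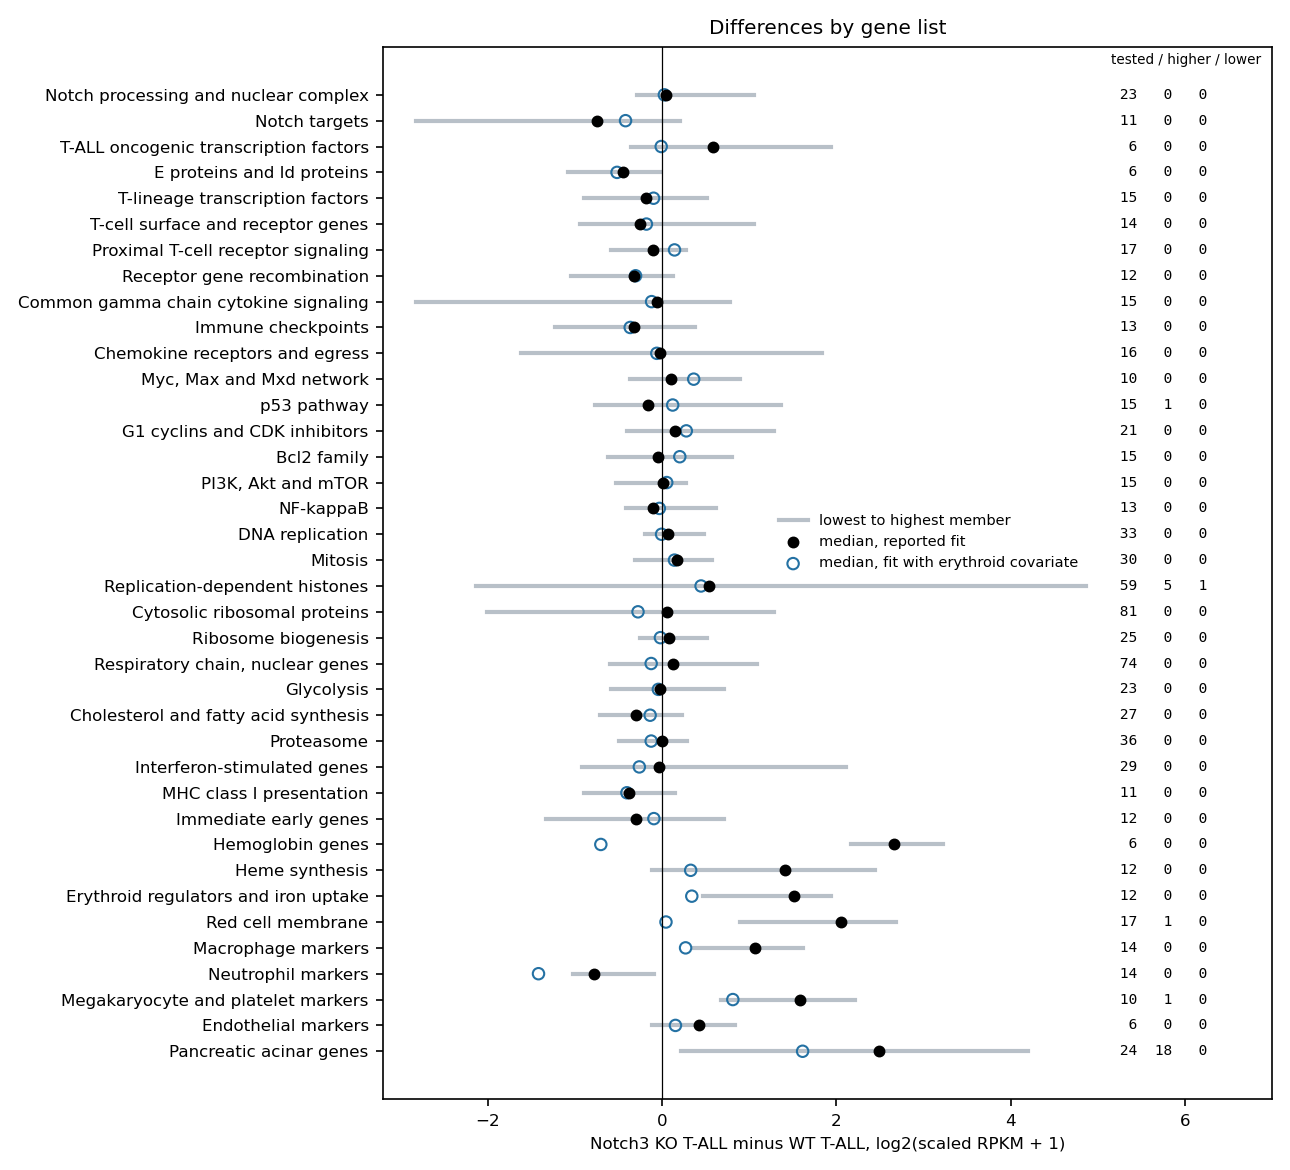
Differences between Notch3 KO T-ALL and WT T-ALL by gene list. The x axis gives the difference in log2(scaled RPKM + 1), grey lines run from the lowest to the highest tested member, filled points mark the list median in the reported fit and open circles the median with the mean of the erythroid markers as a covariate. The numbers at the right count members tested, called higher and called lower. Most T-cell and growth lists lie near 0, and the red cell lists lie at 1.42 or above in the reported fit and at 0.34 or below with the covariate. The covariate is itself a mean of red cell genes, so the lower medians of the red cell lists with it follow from its definition.

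Notch3 (gene 18131, chromosome 17, 32120820 to 32166896 on GRCm38) was examined first as the disrupted gene. Its value was 3.22, 2.59 and 3.74 in Notch3 KO T-ALL 1, 2 and 3, and the WT T-ALL libraries had a lowest value of 3.17, a median of 4.85 and a highest value of 5.78. Notch3 KO T-ALL 2 lay below every WT T-ALL library. Notch3 KO T-ALL 1 and 3 lay above WT T-ALL 110, the lowest of its group, and below every other WT T-ALL library. The groups thus overlapped through WT T-ALL 110 only. The difference was -1.56 (SE 0.41, 95% interval -2.42 to -0.70), and limma over all genes gave an adjusted p of 0.101. The two-sided exact permutation test of Notch3 alone gave p = 0.00882 over 680 splits, where the smallest possible p was 0.00294. Within the 7-library set WT T-ALL ranged from 3.98 to 5.38, above all 3 Notch3 KO libraries. The difference in the set was -1.51 and the exact permutation p was 0.0571, the smallest that these 7 libraries allow. With the mean of the acinar genes as a covariate, a setting added after the values were seen, it was -0.92. Reads of Notch3 remained in all 3 libraries labelled KO. The insertion lies in the first coding exon, and a gene-level value does not tell transcript downstream of the insertion from Notch3 RNA of host cells. Leaving out WT T-ALL 110 gave an adjusted p of 0.0288 in limma, the lowest of all fits without 1 library. The highest was 0.686, when Notch3 KO T-ALL 2 was left out, and it was 0.166 when library 1 and 0.306 when library 3 of the same group was left out. With the mean of the erythroid markers as a covariate the difference was -1.43 and the adjusted p 0.999.

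The neighbors of Notch3 on chromosome 17 were counted next. Of 215 other genes tested within 5 Mb on either side, 18 had an unadjusted p under 0.05 (8.37%), against 8.51% of all genes tested, and 1 was called, the acinar gene Clps.

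The other receptors had values close to those of WT T-ALL. Notch1 was 6.80, 7.20 and 6.52 in Notch3 KO T-ALL, inside a WT T-ALL range from 5.75 over a median of 6.80 to 7.44. The difference of Notch1 was 0.03 with a 95% interval from -0.59 to 0.65, so differences of up to 0.65 on the log2 scale remain possible. Notch2 was 2.45, 2.32 and 2.14, within a WT T-ALL range from 1.41 to 3.28, and its difference of 0.02 had an interval from -0.65 to 0.70. Notch4 did not pass the filter, with values of at most 0.55 in all T-ALL libraries. Of the 5 ligands, only Jag2 was tested, with a difference of 0.08 (interval -0.41 to 0.56), and Dll1, Dll3, Dll4 and Jag1 did not pass the filter.

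The machinery that cuts and reads Notch was measured in 23 genes, and 0 were called. Their differences ran from -0.28 to 1.06 with a median of 0.05. The 3 smallest p-values belonged to Lfng, a glycosyltransferase that modifies Notch, at 1.06 (SE 0.56, adjusted p = 0.67 in limma), to the sheddase gene Adam10 at 0.46 (SE 0.25) and to the gamma-secretase gene Psen2 at 0.51 (SE 0.30). Lfng was 4.97 in Notch3 KO T-ALL 1, above the highest WT T-ALL value of 4.27, and 2.40 and 3.36 in the other two libraries.

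Of 13 Notch targets in the table, 11 passed the filter and 0 were called. Differences were below 0 in 10 of the 11, with a median of -0.74, while 49.5% of all tested genes had a difference above 0. The median was -0.42 with the erythroid covariate and -1.03 within the 7-library set, and it was -0.93, -0.39 and -1.002 when Notch3 KO library 1, 2 or 3 was left out. An unadjusted p under 0.05 with a lower value was found in 3 of them, against 2.21% of all tested genes, and none passed the adjustment. Il2ra, the alpha chain of the interleukin-2 receptor (CD25), was 0.32, 1.23 and 3.79 in Notch3 KO T-ALL against a lowest value of 0.71, a median of 4.40 and a highest value of 8.23 in WT T-ALL. Only Notch3 KO T-ALL 1 lay below that range, and the difference was -2.83 (SE 1.23, adjusted p = 0.497 in limma). Hes1, a repressor and a classical Notch target, was 5.26, 2.58 and 5.50 against 4.61 to 6.46 with a median of 5.23. Notch3 KO T-ALL 2 lay below every WT T-ALL library and the other two lay near the WT T-ALL median, and the difference was -0.97 (SE 0.44). Il7r, the interleukin-7 receptor alpha chain, was 1.12, 0.89 and 3.56 against 1.42 to 6.45 with a median of 3.65, a difference of -1.90 (SE 0.90, adjusted p = 0.587 in limma). With the erythroid covariate the differences were -0.34 for Hes1 and -0.35 for Il7r, against -2.47 for Il2ra.

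The remaining targets overlapped between the groups. Dtx1, an E3 ligase gene, differed by -0.30 (interval -1.39 to 0.79), Heyl, a repressor gene of the Hes family, by -0.72 (-2.24 to 0.79) and Nrarp, a feedback inhibitor of Notch, by -1.25 (-2.82 to 0.32). Myc, a growth regulator, was the 1 target with a difference above 0, at 0.20 (-0.37 to 0.77). Ptcra, the pre-T-cell receptor alpha chain, was 1.27 in Notch3 KO T-ALL 1, under the lowest WT T-ALL value of 1.37, and 5.29 and 5.57 in the other two. The differences of Igf1r, Ccr7 and Trib2 were -0.74, -0.31 and -0.15. Hes5 and Hey1 did not pass the filter.

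**Figure D2:**
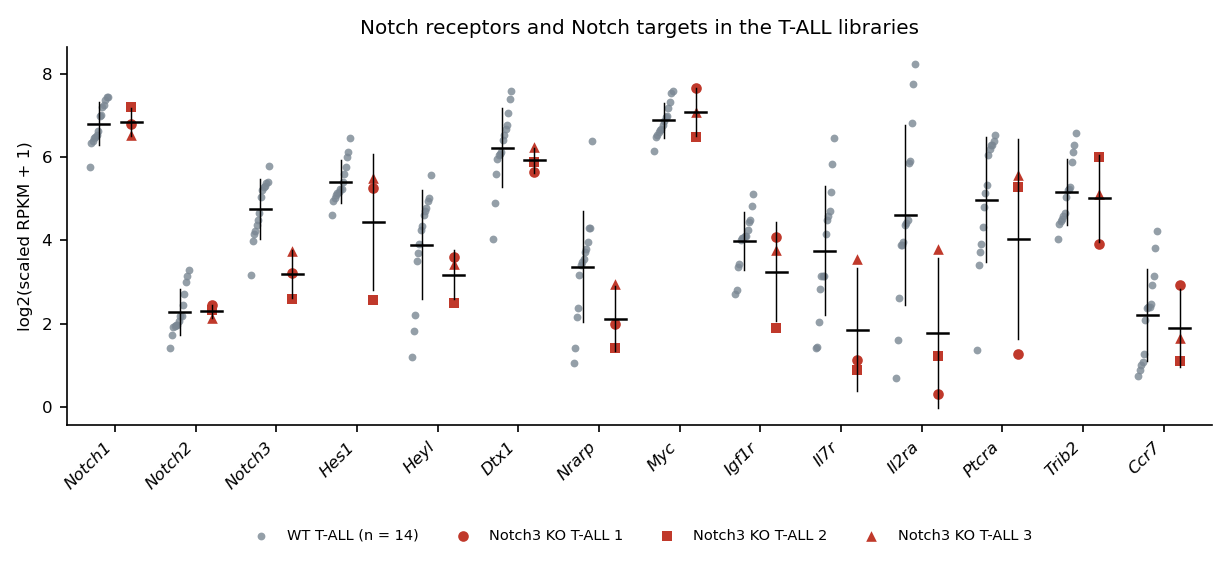
Notch receptors and targets in single libraries. The y axis gives log2(scaled RPKM + 1), grey points are the 14 WT T-ALL libraries, red symbols the 3 Notch3 KO T-ALL libraries, and black bars the mean with 1 SD. The groups overlap in every gene shown, and the Notch3 KO libraries disagree with each other in Hes1, Il2ra and Ptcra.

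The transcription factor genes that are switched on in subsets of T-ALL were represented by 14 genes, of which 6 passed the filter and 0 were called. Tal1 was 3.92, 5.92 and 5.54 in Notch3 KO T-ALL against a lowest value of 1.86, a median of 3.16 and a highest value of 5.05 in WT T-ALL. Lmo2, which encodes a partner of Tal1, was 4.70, 5.81 and 6.04 against 2.90, 4.17 and 5.70. In both genes libraries 2 and 3 lay above every WT T-ALL library and library 1 lay within the range. The differences were 1.94 for Tal1 (SE 0.54, adjusted p = 0.121 in limma) and 1.46 for Lmo2 (SE 0.47, adjusted p = 0.197), and with the erythroid covariate they were 0.31 and 0.11. Both genes are also expressed in red cell precursors. The erythroid markers had a mean value of 5.06, 7.17 and 6.41 in Notch3 KO T-ALL 1, 2 and 3 against 2.40 to 5.99 in WT T-ALL, and a tumor cell source of Tal1 and Lmo2 cannot be told apart from a red cell source in these bulk libraries. Lyl1, a relative of Tal1, differed by 1.12 (SE 0.50), Myb by -0.35 (SE 0.24), and Hhex and Erg by 0.06 and -0.03. Tal2, Lmo1, Tlx1, Tlx3, Hoxa9, Hoxa10, Nkx2-1 and Mef2c did not pass the filter, and Tlx3 was listed at 0 in every T-ALL library.

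The E proteins and the Id proteins that inhibit them had differences below 0 in all 6 genes, with a median of -0.45 and 0 called. Tcf4 differed by -0.87, Id1 by -1.08 and Tcf12 by -0.39, and each of these had a 95% interval that held 0. Among 15 T-lineage transcription factors, Ikzf2 and Ikzf3 had the smallest p-values, with differences of -0.89 (SE 0.39) and -0.74 (SE 0.35) and adjusted p of 0.479 and 0.568 in limma. In the T-cell surface list the median difference was -0.25. Cd4 was 6.11, 6.32 and 3.40 in Notch3 KO T-ALL against 1.90 to 6.30 in WT T-ALL, with library 2 just above that range, library 1 at its upper end and library 3 inside it. Of 12 genes for receptor gene recombination 11 had a difference below 0, and Polm, a DNA polymerase of end joining, had the smallest p at -0.51 (SE 0.24, adjusted p = 0.545 in limma).

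Genes of cell position, activation and immune control were not called either. Klf2, a factor that drives genes of T-cell egress, was 3.23, 1.25 and 2.88 against 2.43 to 5.16 with a median of 4.09, a difference of -1.62 (SE 0.50, adjusted p = 0.165 in limma) that was -0.65 with the erythroid and -0.97 with the acinar covariate. Only Notch3 KO T-ALL 2 lay below the WT T-ALL range. Ccr9, a receptor of thymic and gut homing, differed by 1.83 (SE 1.05). Lag3, an inhibitory receptor gene, differed by -1.23 (SE 0.55, adjusted p = 0.521). Nr4a1, an immediate early gene induced by antigen receptor signals, was 3.69, 1.72 and 2.45 against 2.66 to 5.13, a difference of -1.33 (SE 0.43, adjusted p = 0.192) that was -0.59 with the erythroid covariate.

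Replication and mitosis genes had small differences. The median was 0.06 over 33 replication genes and 0.17 over 30 mitosis genes, with 0 called in both lists, and the differences ran from -0.20 to 0.48 and from -0.31 to 0.57. Among 21 G1 cyclins, E2F factors and inhibitors, differences ran from -0.41 to 1.29 with 0 called. E2f2 differed by 1.11 (SE 0.31, adjusted p = 0.115) and Ccne1 by 0.93 (SE 0.30, adjusted p = 0.185), in limma. Rrm2, the ribonucleotide reductase subunit that limits DNA synthesis, differed by 0.69 (SE 0.21, adjusted p = 0.15 in limma). Mxi1 and Mxd3, antagonists of Myc, differed by 0.89 and 0.49 and were not called. Gadd45a, a stress and p53 target, was the 1 called gene of 15 in the p53 list, whose median was -0.16, against 0.617% of all tested genes. It was 4.101, 4.82 and 5.13 against a lowest value of 2.58, a median of 3.33 and a highest value of 4.23, and libraries 2 and 3 lay above every WT T-ALL library. Gadd45a rose by 1.37 (SE 0.30, adjusted p = 0.0373 in limma), and its difference was 0.75 with the erythroid and 0.33 with the acinar covariate. Gadd45a was not called with either covariate, nor when Notch3 KO T-ALL 2 or 3 was left out.

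Replication-dependent histone genes, whose mRNAs end in a stem-loop and carry no poly(A) tail, moved in both directions. Among 67 listed genes, 59 were tested, 5 were called higher and 1 lower, against 0.591% and 0.0257% of all tested genes, and the median difference was 0.54. At an unadjusted p under 0.05, 27 were higher and 5 lower, against 6.3% and 2.21% of all tested genes. Hist1h1d, a linker histone gene, was 2.91, 3.89 and 3.74 against 1.39 to 2.68 with a median of 2.05, so the groups did not overlap. It rose by 1.52 (SE 0.28, adjusted p = 0.0131 in limma). The other rises were Hist2h4 (1.77), Hist2h2bb (1.67), Hist1h4k (1.58) and Hist1h4j (1.08). Hist1h2ag was 2.50, 2.44 and 2.98 against a lowest value of 3.95, a median of 4.502 and a highest value of 6.84, so the groups did not overlap. Hist1h2ag fell by 2.14 (SE 0.42, adjusted p = 0.0204 in limma). Genes of the H2A and H4 families are near-identical copies of each other, and how reads were divided among them is not given in the sources used here. Hist1h2ap, named after its values were seen, was listed at 0 in Notch3 KO T-ALL 2 and at 7.999 and 8.52 in the other two, and it was 9.07 in WT T-ALL 5 and listed at 0 in the other 13 WT T-ALL libraries.

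Beside these histone mRNAs, other RNAs that carry no poly(A) tail made up 15 of the 69 rises. They were 15 of 18 tested, against 0.591% of all tested genes. Of the 15, 6 were copies of 5S ribosomal RNA with 1 set of values. A further 5 passed the filter through the Notch3 KO libraries alone. Small nucleolar RNAs (snoRNAs) of the box C/D class guide methylation of ribosomal and other RNAs and are cut from introns of host genes, and Rmrp is the RNA part of the enzyme RNase MRP, which processes ribosomal and mitochondrial RNA. The box C/D snoRNAs that were called are shown from GENCODE M21 (GRCm38), 5′ to 3′, with the first TGATGA (the core of box C) and the last CTGA (box D) in capitals.
Snord15a: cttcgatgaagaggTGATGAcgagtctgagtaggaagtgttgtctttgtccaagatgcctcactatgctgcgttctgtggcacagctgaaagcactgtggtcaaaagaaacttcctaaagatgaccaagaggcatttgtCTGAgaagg
Snord15b: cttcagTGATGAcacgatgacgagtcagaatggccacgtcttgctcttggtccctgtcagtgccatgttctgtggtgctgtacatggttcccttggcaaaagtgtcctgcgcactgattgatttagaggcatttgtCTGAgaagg
Snord22: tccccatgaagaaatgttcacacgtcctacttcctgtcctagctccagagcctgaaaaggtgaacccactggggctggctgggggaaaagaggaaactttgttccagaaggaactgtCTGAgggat
Snord17: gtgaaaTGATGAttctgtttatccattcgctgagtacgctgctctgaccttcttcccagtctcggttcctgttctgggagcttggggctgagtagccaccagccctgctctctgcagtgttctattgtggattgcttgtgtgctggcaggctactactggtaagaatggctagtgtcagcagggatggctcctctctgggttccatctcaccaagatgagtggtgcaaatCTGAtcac

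The motifs were searched on the transcript strand only. TGATGA was present in 26.1% and CTGA in 79.5% of the 1507 snoRNA transcripts of GENCODE, so the pair is a description of these RNAs and not a mark of the called ones. Snord22 held no TGATGA. The RNAs are 148, 145, 126 and 238 bases long. Snord15a (chr7:99482785-99482932, minus strand) and Snord15b (chr7:99479563-99479707, minus strand) lie inside Rps3, the first within an intron and the second overlapping an exon of at least 1 Rps3 transcript. Snord22 (chr19:8725866-8725991, plus strand) overlaps an exon of at least 1 transcript of the non-coding gene Snhg1, and Snord17 (chr2:144265979-144266216, minus strand) lies in an intron of Snx5.

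Snord15a was 2.60, 3.36 and 3.34 in Notch3 KO T-ALL, and in WT T-ALL the lowest and the median library were at 0 and the highest at 0.41. Snord15b was 3.23, 4.67 and 3.72 against a median of 0 and a highest value of 0.78. Neither gene overlapped between the groups. Snord15a rose by 3.03 (SE 0.19, adjusted p = 1.97e-08) and Snord15b by 3.64 (SE 0.26, adjusted p = 1.26e-07), in limma. Both passed the filter through the Notch3 KO libraries alone, since every WT T-ALL library was below a scaled RPKM of 1, and so did Snord17, Scarna13 and Snora74a. Snord17, Scarna13 (a guide RNA of Cajal bodies) and Snora74a rose by 2.68 (SE 0.27), 1.73 (SE 0.24) and 1.49 (SE 0.21). Any such gene had to differ to be tested, so neither their number nor their small p-values are support. Rps3, which carries Snord15a and Snord15b, differed by 0.09 (interval -0.61 to 0.80).

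Snord22 and Rmrp passed the filter in WT T-ALL as well. Snord22 was 4.13, 5.95 and 5.08 against a lowest value of 0, a median of 1.11 and a highest value of 2.66. Rmrp (chr4:43492788-43493058, minus strand) was 5.33, 6.21 and 6.86 against 0.65, 2.26 and 4.08. In both genes all 3 Notch3 KO libraries lay above all WT T-ALL libraries. Snord22 rose by 3.95 (SE 0.46, adjusted p = 0.000151) and Rmrp by 3.95 (SE 0.53, adjusted p = 0.000839), in limma. Both were called in every fit that left out 1 library, as was 1 further gene, Gm5801. With the erythroid covariate Snord22 was still called, and Rmrp was not (3.61, adjusted p = 0.0811 in limma). Snhg1, the host of Snord22, differed by 0.26 (interval -0.36 to 0.88). Rpph1, the RNA of RNase P, was 5.60, 5.00 and 6.86 against 1.99 to 6.28 and was not called (2.41, SE 0.75, adjusted p = 0.178).

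Ribosomal RNA rose as well. Rn45s, the precursor of the large ribosomal RNAs, was 12.55, 12.88 and 13.21 against a lowest value of 9.72, a median of 10.77 and a highest value of 12.06, and the groups did not overlap. It rose by 2.10 (SE 0.42, adjusted p = 0.0231 in limma). Rn4.5s, which is placed here only because RefSeq files it under rRNA, rose by 1.86 (SE 0.41). The 6 called copies of 5S ribosomal RNA, Gm25018 among them, have 1 sequence and 1 set of values, so they stand for a single measurement, which was 1.13, 5.18 and 4.75 against 0 to 1.37. Library 1 lay within the WT T-ALL range there and libraries 2 and 3 above it. Over all RNAs without a poly(A) tail, a list built after the values were seen, the share of the summed scaled RPKM was 0.78%, 1.21% and 1.15% in Notch3 KO T-ALL and 0.108% to 0.472% in WT T-ALL. Thymus libraries 1 to 4, from 0.655% to 1.06%, overlapped the Notch3 KO range, while thymus libraries 5 and 6, which the 9 genes place with the Notch3 KO libraries, were at 0.375% and 0.317%, within the WT T-ALL range. Within the 7-library set the difference was 3.10 for Snord15a, 3.88 for Snord15b, 3.36 for Snord22 and 4.28 for Rmrp, and Snord15a, Snord15b and Rmrp were called there. Snord15a and Snord15b were at 0 in every WT T-ALL library of the set. They passed the filter there through the Notch3 KO libraries alone, so their calls in the set are no support. The libraries were made by a protocol for mRNA, and the part that carry-over of RNA without a poly(A) tail had in these differences was not tested.

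**Figure D3:**
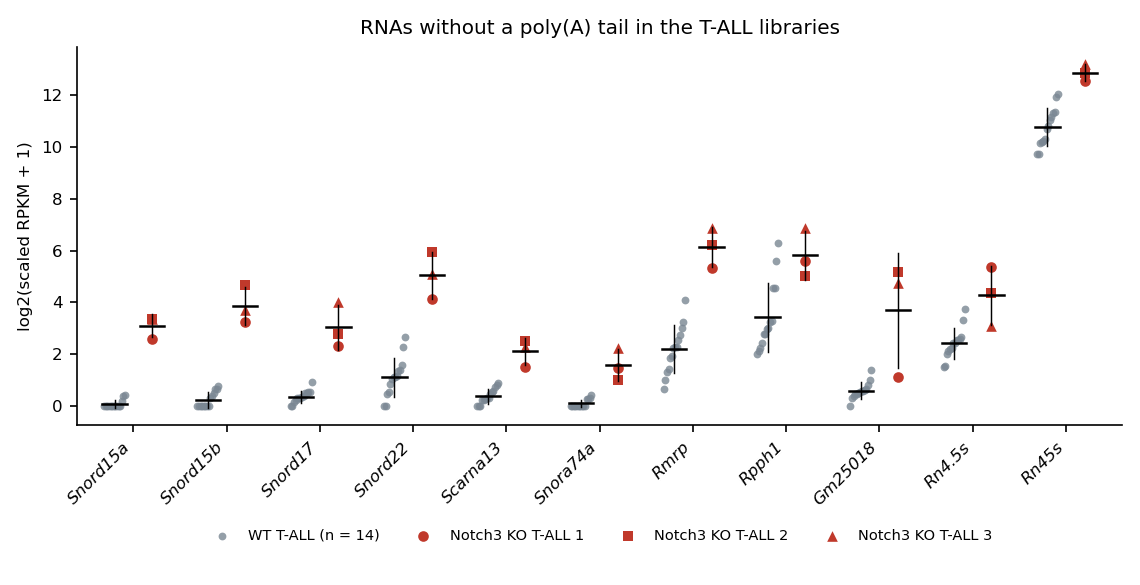
RNAs without a poly(A) tail in single libraries. The y axis gives log2(scaled RPKM + 1), grey points are the 14 WT T-ALL libraries, red symbols the 3 Notch3 KO T-ALL libraries, and black bars the mean with 1 SD. The groups do not overlap in Snord15a, Snord15b, Snord17, Snord22, Scarna13, Snora74a, Rmrp and Rn45s, and they overlap in Rpph1, Gm25018 (5S) and Rn4.5s.

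Red cell RNA was more abundant in the knockout-derived tumors. The share of hemoglobin genes in the summed scaled RPKM was 4.05%, 15.5% and 9.27% in Notch3 KO T-ALL 1, 2 and 3, against a lowest share of 0.0874%, a median of 1.49% and a highest share of 5.92% in WT T-ALL. Libraries 2 and 3 lay above all WT T-ALL libraries and library 1 did not. The two-sided exact permutation test gave p = 0.00882, and p = 0.05 without library 2 or without library 3. Within the 7-library set, where WT T-ALL ranged from 0.0874% to 0.478%, all 3 Notch3 KO libraries lay above WT T-ALL, and the exact permutation p was 0.0571, the smallest that set allows. Dmtn, a red cell membrane gene, was the 1 called gene among 47 tested in the lists for globins, heme synthesis, erythroid regulators and the red cell membrane, against 0.617% of all tested genes, at 2.63 (SE 0.52, adjusted p = 0.0204 in limma). The medians were 2.66 for 6 globin genes, 1.42 for 12 heme synthesis genes, 1.51 for 12 regulators and 2.05 for 17 red cell membrane genes. Among the globin genes, Hbb-bt and Hbb-b2 had the same value in every library and stand for a single measurement. Within the 7-library set, where 0.118% of tested genes were called, the globin median was 4.88, and Hba-a2, an alpha-globin gene, rose by 5.28 (adjusted p = 0.0198 in limma). Hbb-bs, a beta-globin gene, and Alas2, the first enzyme of heme synthesis in red cells, rose there by 4.87 (adjusted p = 0.0304) and 4.66 (adjusted p = 0.0331), in limma. Over all 17 libraries Hba-a2, Hbb-bs and Alas2 differed by 3.22, 2.75 and 2.45 and were not called. Hbb-b1, a near-identical copy of Hbb-bs, was also called in the set. It was listed at 0 in the set's 4 WT T-ALL libraries and was 8.30 or more in the other 10 WT T-ALL libraries and 9.69, 9.93 and 9.92 in Notch3 KO T-ALL, so in Hbb-b1 the Notch3 KO libraries did not go with those 4. Gata1 and Klf1, which drive red cell genes, differed by 1.76 (SE 0.50) and 1.80 (SE 0.57) and were not called. In bulk spleen, more red cell precursors and more RNA per precursor cannot be told apart.

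Among called genes outside the lists, Tmod1, Slc25a39 and Smox had lower differences with the erythroid covariate, and Phospho1 did not. Tmod1, which caps actin filaments in the red cell membrane skeleton, was 2.67, 4.68 and 4.24 against 0.73 to 2.33 with a median of 1.16, and the groups did not overlap. Tmod1 rose by 2.62 (SE 0.35, adjusted p = 0.000718 in limma). Its difference was 1.73 with the erythroid covariate, where it was not called (adjusted p = 0.0811 in limma), and 1.28 with the acinar covariate. Phospho1, a phosphatase gene, was 2.06, 3.00 and 2.95 against 0.05 to 1.52 and rose by 2.12 (SE 0.28, adjusted p = 0.000718), with 2.15 under the covariate. Slc25a39 and Smox rose by 0.98 and 2.12, and their differences were 0.53 and 0.85 with the covariate. With the covariate 10 genes were called, 8 of them among the 72.

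Pancreatic acinar genes, which encode digestive enzymes, were listed after the values were seen. Of 28 genes 24 were tested and 18 were called higher, against 0.591% of all tested genes, and 0 lower. Whether pancreas was taken along with these spleens is not given in the sources used here, and its part in these 18 rises was not tested. Ctrb1, chymotrypsinogen, was 2.14, 6.38 and 6.36 against a lowest value of 0, a median of 0.11 and a highest value of 4.23, so libraries 2 and 3 lay above the WT T-ALL range and library 1 within it. Ctrb1 rose by 4.197 (SE 0.87, adjusted p = 0.0334 in limma). Pnlip, pancreatic lipase, rose by 3.21 (SE 0.58) and Cpa1, carboxypeptidase, by 3.11 (SE 0.55). Their summed scaled RPKM was 42.7, 585 and 383 in Notch3 KO T-ALL and 2.21 to 125 in WT T-ALL, the highest in WT T-ALL 48. The 5 T-ALL libraries with the highest hemoglobin shares were also the 5 with the highest acinar sums, in the same order (Notch3 KO T-ALL 2 and 3, WT T-ALL 48 and 108, and Notch3 KO T-ALL 1), and WT T-ALL 7 had acinar genes with the lowest hemoglobin share. With the mean of the acinar genes as a covariate, 2 genes were called, Snord15a and Snord15b, which had passed the filter through the Notch3 KO libraries alone. Rmrp, Snord22 and Snord17 then differed by 3.22, 3.24 and 2.12 without being called.

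**Figure D4:**
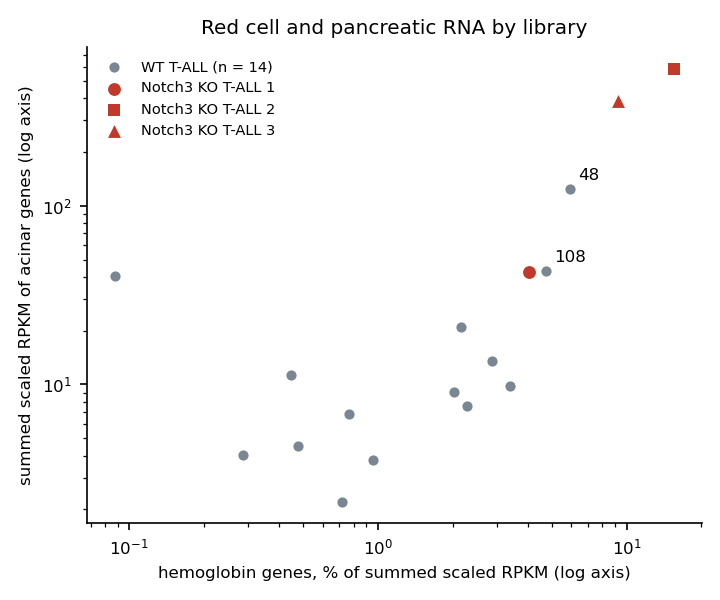
Hemoglobin and acinar genes in single libraries, both axes logarithmic. The x axis gives the hemoglobin share of the summed scaled RPKM in percent, the y axis the summed scaled RPKM of the acinar genes, grey points are WT T-ALL and red symbols Notch3 KO T-ALL. Notch3 KO T-ALL 2 and 3 lie above all WT T-ALL libraries on both axes, and Notch3 KO T-ALL 1 lies beside WT T-ALL 108.

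Markers of other cell types moved unevenly. All 10 tested megakaryocyte and platelet genes had a difference above 0, with a median of 1.59, and Treml1, a platelet receptor gene, rose by 1.90 (SE 0.37, adjusted p = 0.018 in limma). Their summed scaled RPKM was 75.4, 213 and 119 against 5.34 to 225 in WT T-ALL. Macrophage markers had a median difference of 1.06 with 0 of 14 called, and Timd4, a receptor of resident macrophages, lay above all WT T-ALL libraries in all 3 Notch3 KO libraries. Neutrophil markers summed to 6948, 211 and 7834 against 672 to 88198, so library 2 was the lowest of all 17. B-cell markers were tested in 2 genes and neither was called.

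Metabolic and ribosomal lists held 0 called genes in the reported fit. The median difference was 0.06 over 81 ribosomal protein genes, with Rps28 at 1.28 (SE 0.32) above all WT T-ALL libraries and Rps27 at -2.003 (SE 0.57). It was 0.13 over 74 nuclear respiratory chain genes, where Atp5k had the smallest p at 1.09 (SE 0.29), and -0.02 over 23 glycolysis genes. With membership of the 7-library set as a term, Rps28 (1.75, adjusted p = 0.0167) and Atp5k (1.37, adjusted p = 0.0495) were called in limma, and within the set they were not. Of 27 genes for cholesterol and fatty acid synthesis 23 had a difference below 0, with a median of -0.30, and Cyp51 and Hmgcs1, enzymes of the sterol pathway, differed by -0.63 and -0.67 without being called. Among 29 interferon-stimulated genes, Isg15 was 5.08, 7.61 and 7.26 against 2.83 to 6.63, a difference of 2.11 (SE 0.66, adjusted p = 0.179 in limma) that was 0.31 with the erythroid covariate. With membership of the 7-library set as a term, where 1.36% of tested genes were called, Isg15 was called at 3.05 (adjusted p = 0.037 in limma), as was the antiviral gene Rsad2 at 3.62 (adjusted p = 0.0291), and within the set neither was called. Without that term Rsad2 differed by 2.10 and was not called. The median of the list was -0.03.

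Beside Hist1h2ag, Scand1 and Gm12070 fell. Scand1, a gene with a SCAN domain, was 5.50, 4.28 and 4.37 against a lowest value of 5.53, a median of 6.11 and a highest value of 6.81, and the groups did not overlap. Scand1 fell by 1.39 (SE 0.28, adjusted p = 0.0258 in limma). Gm12070 fell by 1.62 (SE 0.36), with library 3 within the WT T-ALL range. Rgmb, a co-receptor gene of bone morphogenetic protein signaling, was 2.10, 3.25 and 1.60 against 0 to 1.02 and rose by 1.88 (SE 0.31, adjusted p = 0.00543). Mpp2, a scaffold gene, was 2.50, 2.83 and 2.41 against 0.20 to 1.65 and rose by 1.86 (SE 0.28, adjusted p = 0.00278), in limma, and its difference was 2.17 in the 7-library set, where it was called.

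**Figure D5:**
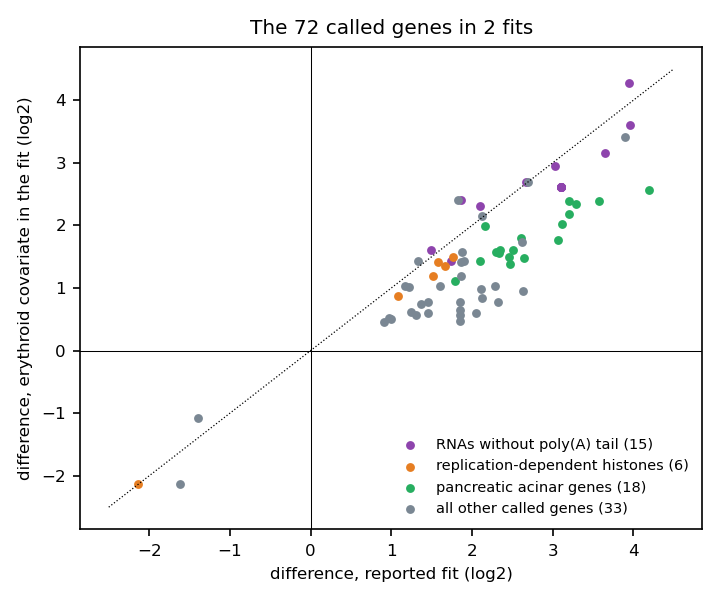
The 72 called genes in the reported fit (x axis) and with the mean of the erythroid markers as a covariate (y axis), both as log2 differences. Colors mark the gene groups, the dotted line marks equal values, and the acinar genes and most other called genes lie nearer to 0 with the covariate while Snord22 lies above the line.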

How the data were processed

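Total RNA of 23 mouse samples was made into stranded mRNA libraries. In the deposited table the authors gave log2 values, derived from RPKM after mapping to mm10 with the OSA aligner in ArrayStudio, whose version and gene model are not given in the sources used here. Their scale was read from the values, since every library had a 75th percentile of 3.46, which is log2(RPKM + 1) at a scaled RPKM of 10.0. No counts were used, so the depth of single libraries is unknown and no detection limit is given. Of 24475 symbols, 27 that had become dates were recovered through their gene identifiers, and 24375 genes had a RefSeq position on GRCm38.p6. GENCODE M21 gave the snoRNA sequences.

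Genes that reached a scaled RPKM of 1 in 3 or more of the 17 libraries entered limma 3.58.1 under R 4.3.3, with lmFit and a robust eBayes with trend, and were called at a Benjamini-Hochberg adjusted p under 0.05. The fit was also run on simulated data, which checks the code and not the results given here. Notch3 and the hemoglobin share were also tested by two-sided exact permutation in scipy. The set of 7 libraries was defined by genes with a gap of over 0.7 between thymus libraries and over 0.3 between WT T-ALL libraries, thresholds chosen after the values were seen. Gm12992, a called gene, is 1 of the 9 genes that defined it. Genes were named by a rule: Notch3, the called genes with the largest changes, the called short non-coding RNAs, every called list member or the 3 of smallest p, and all Notch receptors, ligands, targets and T-ALL transcription factors, of which the text gives a selection. The members and lists were chosen with earlier results of these data known. Alternatives covered the offset, filter, scaling, moderation, covariates, the 7-library set and single libraries.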

Additional observations from a re-analysis of the deposited data

How the results depend on the processing

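The count of 72 called genes depended on the settings. It was 254 with thymus in the same fit, 39 at an offset of 0.1, 2 at 0.01, 6 with a filter at a scaled RPKM of 5, 134 without a filter, 10 with the erythroid covariate, 159 with membership of the 7-library set as a term and 13 within that set. With the acinar covariate and with both covariates it was 2, and 147 without WT T-ALL 48 and 108, 3 settings chosen after seeing the data. It ranged from 3 to 205 when 1 library was left out. Under quantile normalization 75 genes were called and the share of rises went from 95.8% to 88.0%. Of the 72 genes, 38 were also called at an offset of 0.1, 57 with the 7-library term and 5 within the 7-library set, where 64 of them were tested. The cause of these changes was not tested, except that Snord15a, Snord15b, Snord17, Scarna13 and Snora74a could not pass the filter once a Notch3 KO library was left out.

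The 16 called members of the pathway and cell type lists became 48 with thymus in the fit, 1 at an offset of 0.01, 4 with the stricter filter, 6 with the erythroid covariate, 33 with the 7-library term, 8 within the set, 2 with the acinar covariate, 2 with both covariates and 38 without WT T-ALL 48 and 108, and ranged from 2 to 36 when 1 library was left out. The 7 called short non-coding RNAs became 1 at an offset of 0.01, 4 with the stricter filter, 11 without a filter, 3 within the set, 2 with the acinar covariate and 2 with both covariates, and ranged from 2 to 7 when 1 library was left out. The Notch3 difference was -1.56 with thymus in the fit, where its adjusted p in limma was 0.0411, and it ranged from -1.84 to -1.27 when 1 library was left out. The difference in mean hemoglobin share, 7.68 percentage points, ranged from 4.72 to 10.5 when 1 Notch3 KO library was left out was 8.88 without mitochondrial genes in the sum and was 9.29 within the 7-library set, a setting chosen after seeing the data.

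Some named genes changed sign. With the covariates these included genes with differences over 1 in the reported fit, namely the called Ctrb1 (4.197) and the uncalled Hbb-b1 (3.17), Hbb-bs (2.75), Alas2 (2.45), Isg15 (2.11), Rsad2 (2.10) and Lmo2 (1.46). Ctrb1 is part of the acinar covariate, and the globin genes and Alas2 are red cell genes like those of the erythroid covariate. Their changes of sign under these covariates are therefore no separate result. At offsets of 0.1 and 0.01 Erg was 0.13 and 0.20. Under quantile normalization Notch1 was -0.0013, Notch2 -0.054, Jag2 -0.026, Hhex -0.066 and Rps3 -0.0035. With the erythroid covariate Notch2 was -0.25, Adam10 -0.012, Hhex -0.17, Rps3 -0.38, Snhg1 -0.13, Hbb-bs -0.14, Hbb-b1 -2.27, Alas2 -0.53 and Rsad2 -0.42. With the 7-library term Notch1 was -0.051, Jag2 -0.11, Myc -0.27, Ccr7 0.87, Trib2 0.011 and Erg 0.29, and within the set Notch1 was -0.051, Myc -0.27, Ccr7 0.87, Trib2 0.011 and Erg 0.29. With the acinar covariate Notch2 was -0.015, Adam10 -0.083, Dtx1 0.043, Igf1r 0.0078, Ccr7 0.34, Hhex -0.054, Ikzf3 0.11, Rps3 -0.063, Snhg1 -0.10, Ctrb1 -0.31, Isg15 -0.25 and Rsad2 -0.18. With both covariates Notch2 was -0.092, Adam10 -0.17, Igf1r 0.094, Ccr7 0.14, Lmo2 -0.10, Hhex -0.11, Ikzf3 0.14, Rps3 -0.19, Snhg1 -0.18, Ctrb1 -0.34, Isg15 -0.54, Hbb-bs -0.084, Alas2 -0.46 and Rsad2 -0.69. Without WT T-ALL 48 and 108 Notch1 was -0.0077 and Erg 0.0081. When 1 library was left out, ranges that crossed 0 were -0.051 to 0.11 for Notch2, -0.087 to 0.49 for Myc, -1.70 to 0.45 for Ptcra, -0.64 to 0.40 for Trib2, -0.11 to 0.32 for Hhex, -0.15 to 0.19 for Notch1, -0.83 to 0.091 for Ccr7, -0.26 to 0.19 for Erg, -0.27 to 0.40 for Rps3 and -0.12 to 0.51 for Snhg1.

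No paired analysis was possible because the numbers in the labels name tumor cases and the groups share only number 3. With 3 Notch3 KO libraries, single tumors carry much weight, and without read counts the precision of low values is unknown.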
